A study of Rattus norvegicus with 64 samples.

Results

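The 10 genes described here belong to the integrated stress response: Atf4, Ddit3, Trib3, Asns, Chac1, Sesn2, Atf5, Psat1, Phgdh and Slc7a11. They were chosen by name as members of the pathway and make up 10 of the 30045 gene symbols counted. RNA came from a piece of lung of male Sprague-Dawley rats, an outbred strain, whose age is not given in the sources used here. The animals breathed fracking sand dust (the mostly silica sand that props open rock during hydraulic fracturing) or filtered air in a whole-body chamber, over 4 daily sessions of 6 hours. Dust was given at 10 mg/m3 or at 30 mg/m3, and lungs were collected 1, 7 or 27 days later. Each dose had air rats of its own. The 10 mg/m3 study had 5 dust and 5 air rats on day 1, 5 and 5 on day 7, and 4 and 4 on day 27, and the 30 mg/m3 study had 6 dust and 6 air rats on each day, which makes 64 libraries in 12 groups. That the libraries come from separate rats rests on their titles, so the p-values measure the spread between these libraries.

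The integrated stress response starts when a kinase that senses unfolded protein, missing amino acids, viral RNA or lack of heme phosphorylates the translation factor eIF2. Protein synthesis then slows in general while the transcription factor ATF4 is made more, largely through translation rather than through its mRNA. ATF4, often with C/EBP partners, switches on genes for amino acid synthesis and transport, for redox balance and, when the stress lasts, for cell death. The mRNA levels below therefore report on the targets more directly than on ATF4 itself. In whole lung, fewer cells of a type and less RNA per cell cannot be told apart.

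ATF4 and C/EBP proteins bind a composite element whose core was searched as TGATGNAA on both strands, with TTNCATCA as its reverse. Promoter windows from RefSeq (GRCr8 assembly), 250 bases before to 50 bases after each gene's start, were found for all 10 genes. The core occurs in 2 of the 10, Chac1 and Trib3, and in 3.98% of all 33469 windows in the table. Ddit3 and Sesn2, also known as ATF4 targets, had no match in their windows. Only the 2 windows with a match are shown, with the match in capitals, 5′ to 3′ on the gene's strand.
Chac1: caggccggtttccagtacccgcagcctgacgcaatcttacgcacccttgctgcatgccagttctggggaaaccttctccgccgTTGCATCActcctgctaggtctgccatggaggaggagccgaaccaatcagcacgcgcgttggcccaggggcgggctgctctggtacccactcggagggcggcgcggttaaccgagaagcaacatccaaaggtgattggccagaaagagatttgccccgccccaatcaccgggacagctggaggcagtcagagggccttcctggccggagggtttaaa
Trib3: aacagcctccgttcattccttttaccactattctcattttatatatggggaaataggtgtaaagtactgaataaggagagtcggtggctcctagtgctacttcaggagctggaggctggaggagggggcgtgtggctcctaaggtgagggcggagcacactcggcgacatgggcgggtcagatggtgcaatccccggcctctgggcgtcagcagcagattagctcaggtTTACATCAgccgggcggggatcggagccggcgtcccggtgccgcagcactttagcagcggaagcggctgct
The match begins 167 bases before the start in Chac1 and 21 bases before the start in Trib3, and in both it reads on the reverse strand. The longer form TGATGCAAT was in 0 of the 10 windows and in 0.188% of all windows. These letters describe the windows and do not show binding.

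Library totals ran from 3420235 to 12359518 counts, and the lowest belonged to dust rat 27 (10 mg/m3, day 1). Markers of lung epithelium and endothelium were high in every library (Sftpc at 6748 CPM or more). Of the leukocyte markers, Ptprc ran from 251 to 516 CPM and Cd68 from 20.7 to 51.4 CPM. Marco, a macrophage receptor, had 0 counts in 46 of 64 libraries. Heart muscle transcripts varied widely, with a summed level of 146 to 377 CPM in dust rats and 540 to 1866 CPM in air rats on day 7 of the 30 mg/m3 study. Air rats 51 and 53 (30 mg/m3 study, day 1) stood apart with counts for 21889 or more genes. On each day of each study the dust rats carry higher title numbers than the air rats; what the number stands for is not stated, and anything that follows it cannot be told apart from dust.

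Levels below are CPM, read counts scaled to a common library size after TMM correction for RNA composition. They are comparable between rats for 1 gene but not between genes, since they are not divided by gene length. All 10 genes passed the filter on low counts in both studies. Atf4, the central transcription factor, had 636 to 2691 counts a library and Atf5, a related factor of mitochondrial stress, 278 to 1426. Chac1, which degrades glutathione, had 0 to 16 counts, Slc7a11, the cystine importer, 4 to 61, and Phgdh, the first enzyme of serine synthesis, 10 to 57, so these 3 carry the largest counting error.

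Group means of Atf4 lay within a narrow band, with the highest in air rats on day 1 of the 30 mg/m3 study (251 ± 20.3 CPM, SD, n = 6) and the lowest in dust rats on day 27 of the 10 mg/m3 study (217 ± 10.2 CPM, n = 4). Ddit3, the CHOP transcription factor that promotes cell death, had its lowest and highest group means side by side, in dust rats (16.9 ± 2.54 CPM, n = 5) and air rats (23.0 ± 2.45 CPM, n = 5) on day 1 of the 10 mg/m3 study. Trib3, a pseudokinase that restrains ATF4 and AKT signalling, likewise had its highest mean in those dust rats (7.74 ± 0.787 CPM) and its lowest in those air rats (4.59 ± 1.62 CPM). Asns, asparagine synthetase, spread most within groups in the 30 mg/m3 study. Dust rats 57 and 89 reached 61.004 and 55.2 CPM and air rat 85 reached 51.4 CPM, while the median of all 64 libraries was 25.0 CPM. Rats 57, 89 and 85 also had the highest summed red cell transcripts of their groups, at 15117, 13311 and 7257 CPM. The medians of those groups were 2390, 1542 and 2328 CPM. Whether red cell content plays a part in the Asns values was not tested. When the 12 group means of a gene are put in order, neighbours differed by less than the larger of their SDs for all 10 genes. Sorting makes such small steps likely, and it says nothing of groups farther apart in the order.

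**Figure D1:**
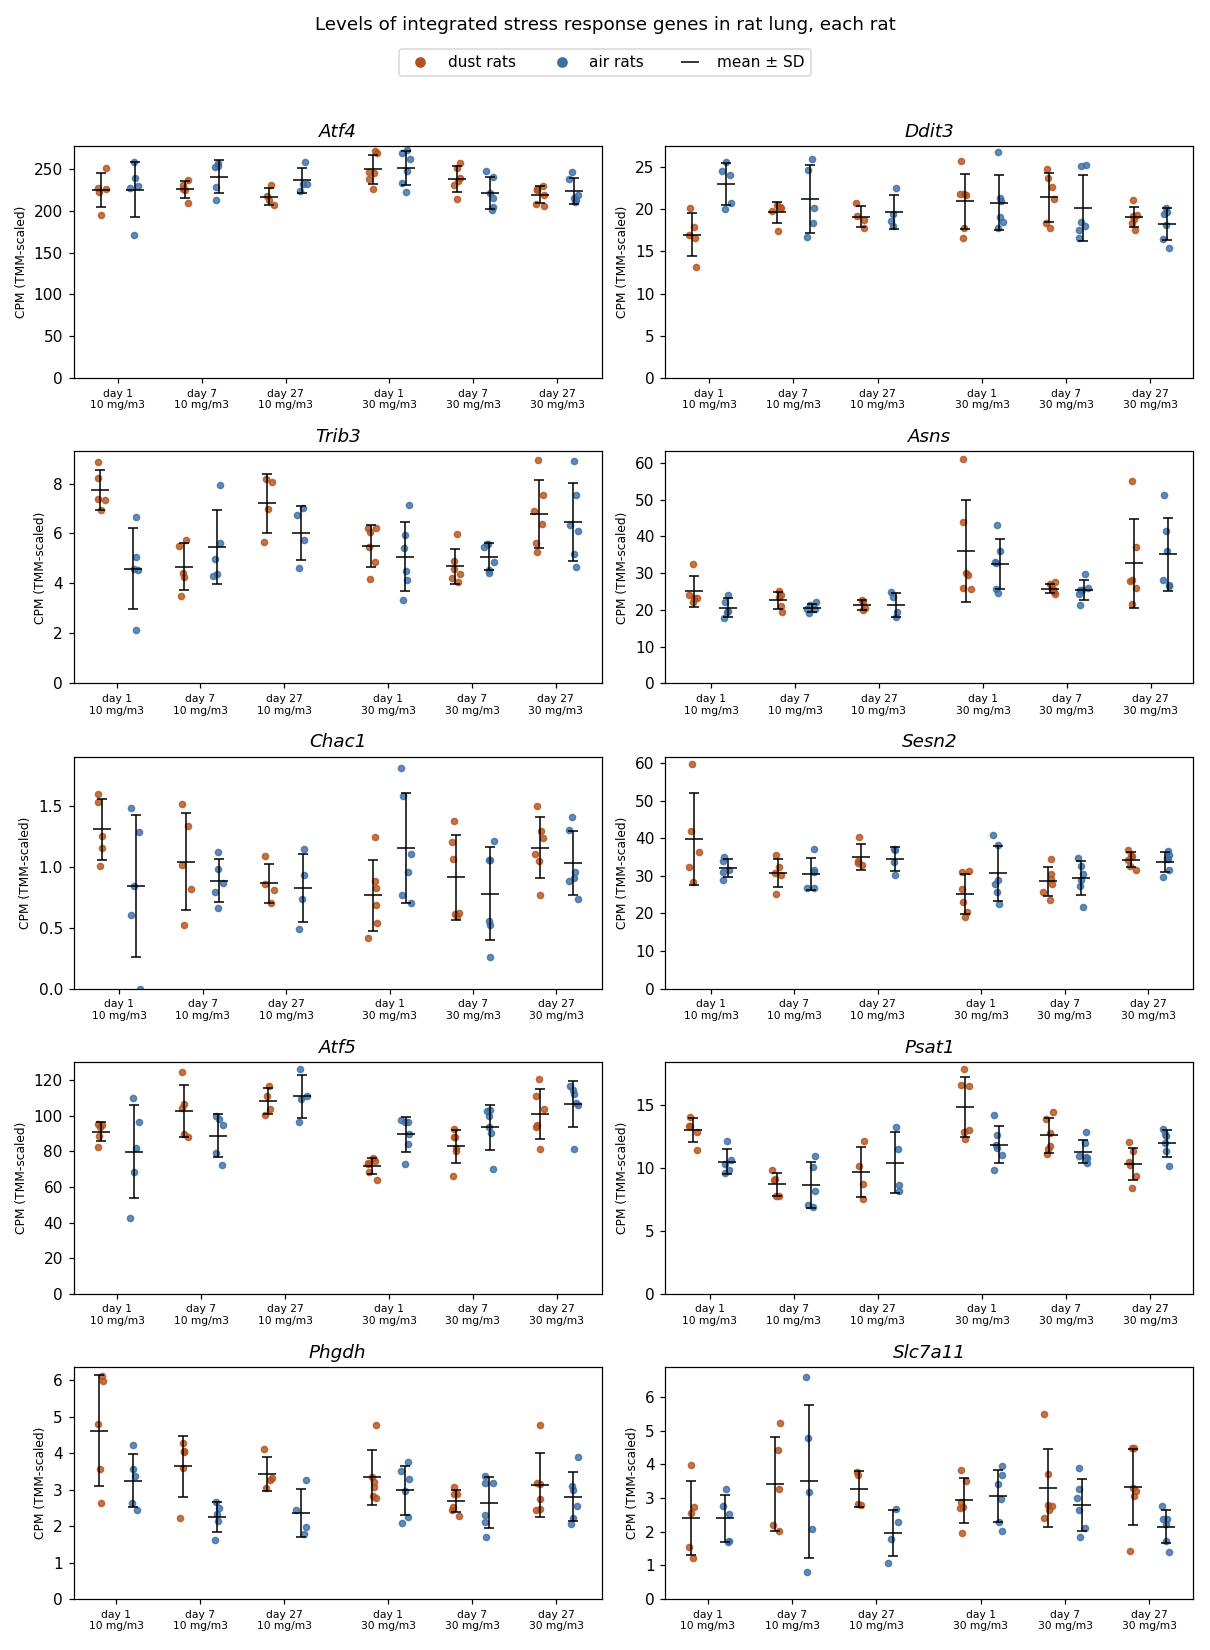
Level of each of the 10 genes in every rat, in CPM on linear axes from 0, with dust rats left of air rats for each day and dose; bars show mean ± SD of 4 to 6 rats. Dust and air rats overlap in all but 2 of the 60 pairs of groups; Trib3 on day 1 and Slc7a11 on day 27, both at 10 mg/m3, do not.

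The first question was whether dust at 10 mg/m3 moved these genes 1 day after exposure. None of the 10 genes passed an adjusted p of 0.05 by edgeR's quasi-likelihood test with Benjamini-Hochberg adjustment, where 20 of 15668 genes did (0.128%). An unadjusted p under 0.05 was reached by 6 of the 10, against 18.9% of all genes; 5 were higher (9.27% of all genes) and 1 was lower (9.61%) in dust rats. The log2 fold changes of 9 of the 10 were above 0, as were those of 48.4% of all genes. Their median was 0.28, beside -0.01 for all genes tested.

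Among the ATF4 targets and regulators, Trib3 had 8.87, 8.21, 7.37, 6.92 and 7.33 CPM in the 5 dust rats, against 2.14, 5.05, 6.66, 4.56 and 4.55 CPM in the 5 air rats. Every dust rat was above every air rat, which held for 1.08% of all genes. The log2 fold change was 0.74 ± 0.21 (SE), with an adjusted p of 0.08998 by edgeR's quasi-likelihood test. Sesn2, an inhibitor of mTORC1, averaged 39.7 ± 12.2 CPM in dust rats and 32.04 ± 2.40 CPM in air rats (SD, n = 5 each), and the groups overlapped, with dust rat 27 highest at 59.7 CPM. Chac1 averaged 1.31 ± 0.250 CPM in dust rats and 0.843 ± 0.5849 CPM in air rats, with 5 to 15 counts a library in dust rats and 0 to 12 in air rats, and the log2 fold change was 0.58 ± 0.38, for which edgeR gave an adjusted p of 0.4133.

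The amino acid enzymes had means on the same side. Psat1, the second enzyme of serine synthesis, had 12.8, 13.3, 14.03, 11.4 and 13.3 CPM in dust rats, against 9.80, 10.3, 9.62, 12.2 and 10.6 CPM in air rats. Only dust rat 31 fell below the highest air rat. For Asns, dust rats had 32.4, 23.2, 24.1, 23.3 and 22.2 CPM, against 19.6, 17.8, 22.2, 24.1 and 19.5 CPM in air rats, and dust rat 27 stood above the rest. Log2 fold changes were 0.27 ± 0.11 (SE) for Asns, 0.32 ± 0.15 for Psat1, 0.49 ± 0.23 for Phgdh and 0.29 ± 0.14 for Sesn2, with adjusted p between 0.1756 for Asns and 0.248 for Sesn2 by edgeR's quasi-likelihood test.

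Ddit3 was the 1 gene of the 10 with a log2 fold change below 0. It had 13.2, 20.2, 16.96, 17.9 and 16.5 CPM in dust rats, against 20.7, 24.5, 25.5, 24.1 and 20.03 CPM in air rats. Dust rat 29 alone lay among the air rats. The log2 fold change was -0.41 ± 0.11 (SE), with an adjusted p of 0.08921 by edgeR's quasi-likelihood test. Atf4 averaged 224 ± 20.2 CPM in dust rats and 225 ± 32.8 CPM in air rats, and the interval of its log2 fold change (±2 SE) was -0.17 to 0.18. For Atf5 the log2 fold change was 0.19 ± 0.15 and for Slc7a11 0.08 ± 0.39.

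Single libraries and the choice of tool moved these calls. Without air rat 21, edgeR's adjusted p was 0.02099 for Ddit3 and 0.04687 for Trib3, and 1147 genes passed in all. DESeq2 gave Ddit3 an adjusted p of 0.0348 and gave none for 4 genes that its own filter on low means set aside (Trib3, Chac1, Phgdh and Slc7a11), so it called 1 of 6; limma voom called 0 of the 10. Air rat 17 was the lowest of its group for Trib3, and without it the log2 fold change of Trib3 was 0.57 ± 0.19 (SE), with an adjusted p of 0.2678 by edgeR. With each library's share of mitochondrial rRNA as a covariate, Ddit3 had 0.04923. That share was 0.4926% to 2.62% in dust rats. It was 0.0961%, 0.127%, 0.120%, 0.314% and 3.01% in air rats 17, 18, 19, 20 and 21. Air rat 21 alone made the groups overlap, so without it dust and this share can hardly be told apart. Dbp, a clock-driven transcription factor, was 14.7 to 49.4 CPM in dust rats and 3.22 to 8.18 CPM in air rats, with no overlap. The part of either in these results was not tested beyond that covariate and one for Dbp, under which 0 of the 10 genes passed.

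On day 7 and day 27 at 10 mg/m3, 0 of the 10 genes passed by edgeR, nor did any of the 15668 genes tested, and DESeq2 and limma voom also called 0 of the 10. An unadjusted p under 0.05 was reached by 1 of the 10 on day 7 (3.96% of all genes) and by 0 on day 27 (2.36%). Trib3 had log2 fold changes of -0.22 ± 0.21 (SE) on day 7 and 0.24 ± 0.22 on day 27, and the test of whether its dust effect depended on the day gave an adjusted p of 0.6548 by edgeR. It was the 1 of 10 genes with an unadjusted p under 0.05 in that test, which 7.28% of all genes reached. Ddit3 had -0.12 ± 0.11 on day 7 and -0.06 ± 0.13 on day 27.

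Phgdh had a higher mean in dust rats on all 3 days. On day 1, dust rats had 6.12, 4.80, 2.62, 3.56 and 5.97 CPM, against 3.37, 2.63, 3.58, 4.21 and 2.43 CPM in air rats. On day 7, dust rats had 2.22, 3.60, 4.02, 4.29 and 4.07 CPM, against 2.34, 2.66, 2.49, 1.61 and 2.15 CPM in air rats, so 4 of 5 dust rats lay above every air rat. On day 27, dust rats had 3.25, 4.12, 3.04 and 3.30 CPM, against 3.26, 1.97, 2.45 and 1.78 CPM in air rats.

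The log2 fold change of Phgdh was 0.67 ± 0.24 (SE) on day 7 and 0.52 ± 0.26 on day 27. Averaged over the 3 days it was 0.56 ± 0.14, with an adjusted p of 0.2405 by edgeR's quasi-likelihood test, so it did not pass. For that average, 0 of the 10 genes passed where 5 of 15668 did (0.0319%), and 2 of the 10 (Phgdh higher, Ddit3 lower) had an unadjusted p under 0.05, against 9.27% of all genes; DESeq2 and limma voom called 0 of the 10. Ddit3 averaged -0.19 ± 0.07.

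Slc7a11 on day 27 was the other pair of groups without overlap at 10 mg/m3. Dust rats had 2.78, 3.77, 2.83 and 3.67 CPM, against 1.79, 1.09, 2.68 and 2.30 CPM in air rats, a pattern that 1.1% of all genes showed. The log2 fold change was 0.72 ± 0.43 (SE), with an adjusted p of 0.9997 by edgeR, and the counts were 24 to 32 in dust rats and 11 to 23 in air rats. Dbp was 18.6 to 42.5 CPM in these dust rats and 5.33 to 12.2 CPM in these air rats. With no overlap, dust and Dbp can hardly be told apart there.

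At 30 mg/m3 the 10 genes centred on 0. By edgeR 0 of the 10 passed on day 1 (0 of 15551 genes did), day 7 (0.0643% of genes did, all of them lower in dust rats), day 27 (0 genes did) or in the mean of the 3 days (187 genes, 1.2%). An unadjusted p under 0.05 was reached by 3 of the 10 on day 1 (15% of all genes), 0 on day 7 (4.99%), 1 on day 27 (7.34%) and 1 in the mean (17.8%). The median log2 fold change of the 10 was -0.01 on day 1, 0.05 on day 7, 0.04 on day 27 and 0.02 in the mean, beside 0.02, 0.00, 0.00 and 0.01 for all genes. DESeq2 called 1 of the 10 in the mean (Atf5) and 0 on the single days, with no adjusted p for Chac1 on day 1, and limma voom called 0.

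Atf5 was lower in dust rats of this study. On day 1 the 6 dust rats had 76.1, 73.1, 73.5, 68.5, 64.2 and 74.7 CPM, with a median of 73.3 CPM, against a lowest value of 72.8 CPM, a median of 93.2 CPM and a highest value of 97.8 CPM in the 6 air rats. Only air rat 53 lay within the range of the dust rats. The log2 fold change was -0.33 ± 0.10 (SE) on day 1, -0.18 ± 0.10 on day 7 and -0.08 ± 0.10 on day 27.

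Over the 3 days Atf5 averaged -0.20 ± 0.06 (SE), with an adjusted p of 0.07049 by edgeR's quasi-likelihood test. With DESeq2 the adjusted p was 0.03898, and leaving out air rats 51 and 53 gave 0.02524 for the mean and 0.03962 for day 1 by edgeR. Leaving out air rat 53 alone gave 0.02418 for the mean and 0.04481 for day 1, and leaving out air rat 69 or air rat 84 gave 0.02197 or 0.04075 for the mean. With the mitochondrial rRNA share as a covariate the mean was -0.11, with an adjusted p of 0.5115 by edgeR; that share was 0.105% to 0.478% in dust rats and 0.128% to 0.903% in air rats on day 1, and 0.109% to 0.453% and 0.458% to 0.885% on day 7. Without air rats 51 and 53, 877 genes passed on day 1 and 1014 in the mean.

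Psat1 and Sesn2 were the other genes with an unadjusted p under 0.05 on day 1. Psat1 ranged from 12.3 to 17.9 CPM with a median of 14.7 CPM in the 6 dust rats, against 9.79 to 14.2 CPM with a median of 11.7 CPM in the 6 air rats. Its log2 fold change was 0.31 ± 0.11 (SE) on day 1, 0.15 ± 0.10 on day 7 and -0.21 ± 0.11 on day 27, and the test for dependence on the day gave an adjusted p of 0.5375 by edgeR. It was the 1 of 10 genes with an unadjusted p under 0.05 there, against 4.42% of all genes. Sesn2 averaged 25.2 ± 5.26 CPM in dust rats and 30.6 ± 7.32 CPM in air rats on day 1, a log2 fold change of -0.29 ± 0.13, opposite in sign to its value at 10 mg/m3.

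Slc7a11 on day 27 ranged from 1.44 to 4.49 CPM with a median of 3.25 CPM in the 6 dust rats, against 1.40 to 2.77 CPM with a median of 2.31 CPM in the 6 air rats. Of the dust rats, only rat 91 was below the highest air rat. The log2 fold change was 0.64 ± 0.24 (SE), with an adjusted p of 0.5193 by edgeR's quasi-likelihood test, beside 0.72 ± 0.43 on day 27 at 10 mg/m3, which comes from other rats. Neither passed. Trib3, the gene farthest from 0 on day 1 at 10 mg/m3, had 0.10 ± 0.16 on day 1 at 30 mg/m3, and Ddit3 had 0.00 ± 0.11. For Atf4 the interval of the mean effect (±2 SE) was -0.06 to 0.09.

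**Figure D2:**
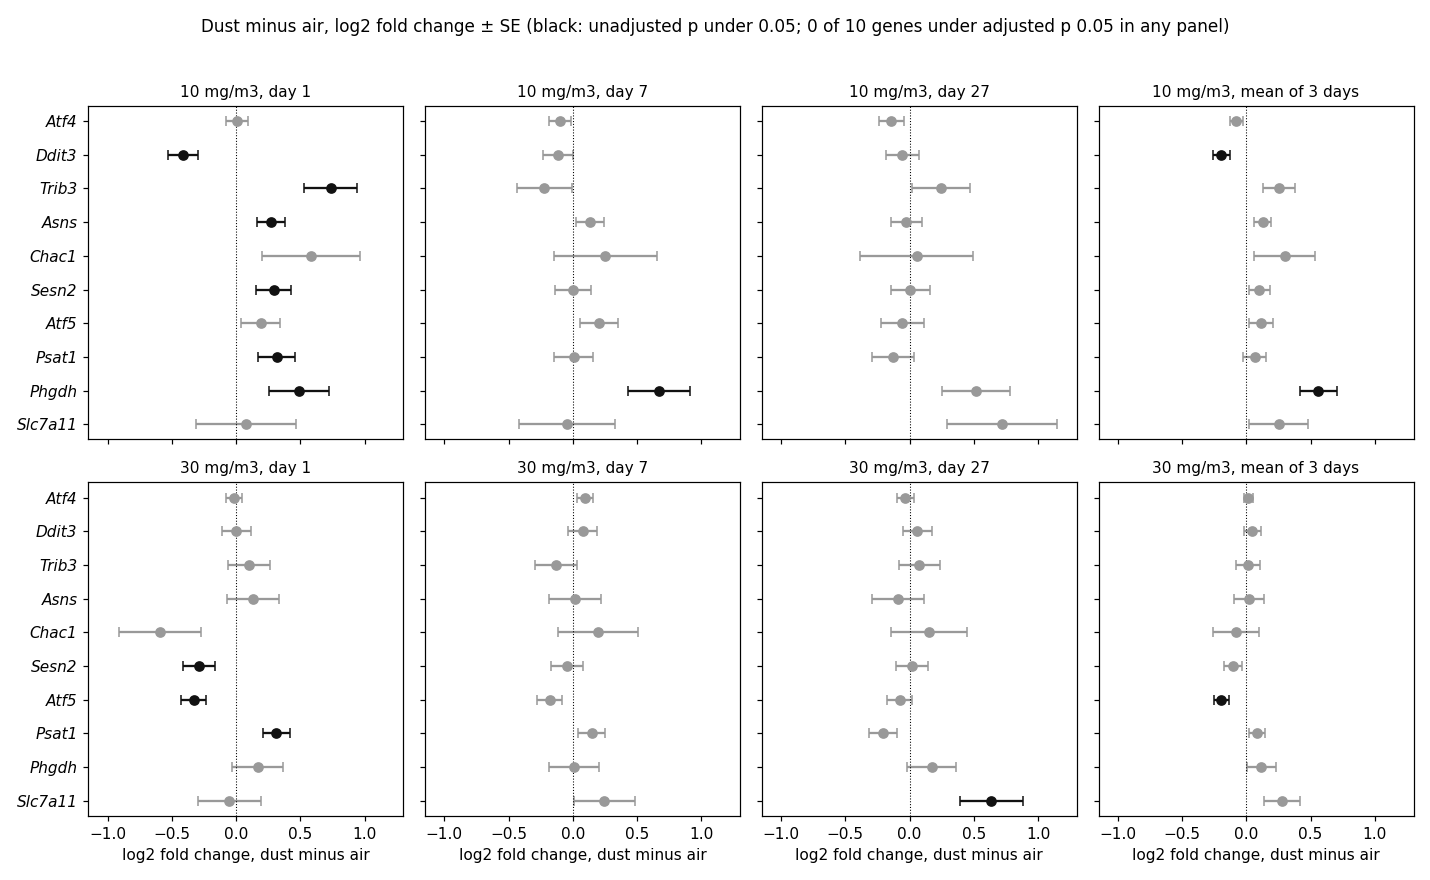
Log2 fold change of each gene, dust minus air, with its SE, from edgeR for each day and for the mean of the 3 days, at 10 mg/m3 (upper row) and 30 mg/m3 (lower row); black points have an unadjusted p under 0.05 and 0 points pass after adjustment. At 10 mg/m3 on day 1, 9 of 10 points lie right of 0 and Ddit3 lies left at -0.41, while the mean effects at 30 mg/m3 lie between -0.20 and 0.28.

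The doses were compared as the mean effect at 30 mg/m3 minus that at 10 mg/m3, in 1 fit of 64 libraries. Each dose was a separate study, so a difference between doses cannot be told apart from a difference between studies. By edgeR 0 of the 10 genes passed, where 338 of 16190 did (2.09%), and 3 of the 10 had an unadjusted p under 0.05, against 22.4% of all genes; limma voom called 0 and DESeq2 0 of the 7 for which it gave an adjusted p (none for Chac1, Phgdh and Slc7a11). Those 3 were Atf5 with a log2 difference of -0.31 ± 0.10 (SE; adjusted p = 0.08186), Phgdh with -0.44 ± 0.18 (0.1293) and Ddit3 with 0.24 ± 0.10 (0.129). The median of the 10 was -0.15, beside 0.02 for all genes. Without air rats 51 and 53 the adjusted p of Atf5 was 0.04762, and leaving out 1 of air rats 20, 21, 53 or 69 gave 0.04335, 0.04339, 0.04829 or 0.04461.

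Each gene was also tested alone on log2 CPM by an exact two-sided permutation test, dust against air on each day and dose. Of these 60 tests, 8 had an unadjusted p under 0.05 and 0 passed after Benjamini-Hochberg adjustment, the lowest adjusted p being 0.239. The smallest p that this test allows is 0.00794 for 5 against 5 rats, 0.0286 for 4 against 4 and 0.00216 for 6 against 6. Trib3 on day 1 at 10 mg/m3 was at its floor of 0.00794 and still had an adjusted p of 0.239. With 60 tests adjusted together, 1 gene at its floor cannot pass alone, so the count of 0 decides little. The share of all genes was not computed for this test.

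Air rats of day 27 and day 1 were compared to see how the genes differ between days when no dust is given. In the 10 mg/m3 study their mitochondrial rRNA share had a median of 3.16% (3.017% to 4.00%) on day 27. On day 1 the median was 0.127% (0.0961% to 3.012%). With no overlap, time and this share can hardly be told apart there. By edgeR 0 of the 10 passed in either study, where 2.97% of genes did at 10 mg/m3 and 12.9% at 30 mg/m3, and 1 and 3 of the 10 had an unadjusted p under 0.05, against 18.8% and 30.1%. Atf5 was higher on day 27 in both, at 111 ± 12.0 CPM on day 27 (n = 4) and 79.9 ± 26.0 CPM on day 1 (n = 5) of the 10 mg/m3 study. In the other study it averaged 106 ± 12.9 CPM on day 27 and 89.6 ± 9.82 CPM on day 1 (n = 6 each). The log2 fold changes of Atf5 were 0.47 ± 0.16 (SE; adjusted p = 0.09603) and 0.24 ± 0.10 (0.09014) by edgeR. With the mitochondrial rRNA share as a covariate the values of Atf5 were 0.28 at 10 mg/m3 and -0.00 at 30 mg/m3, with adjusted p of 0.6515 and 0.9945 by edgeR. Atf4 in that study averaged 224 ± 15.05 CPM on day 27 and 251 ± 20.3 CPM on day 1, which is -0.17 ± 0.06 on the log2 scale (adjusted p = 0.06299 by edgeR and 0.04075 by DESeq2), and -0.09 with the rRNA covariate (adjusted p = 0.6558 by edgeR).

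Several single libraries decided whether these values over time were called by edgeR. Atf5 had an adjusted p of 0.04297 or 0.0357 in the 10 mg/m3 study without air rat 20 or 21, and of 0.0321 in the 30 mg/m3 study without air rat 84. Atf4 had 0.02487, 0.04536, 0.03711 or 0.04412 without air rat 54, 55, 83 or 84. With Dbp as a covariate Atf4 had 0.03894. By limma voom 0 of the 10 genes passed in either study, and DESeq2 gave no adjusted p for Chac1, Phgdh and Slc7a11 at 10 mg/m3.

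To see which of the 10 genes vary together from rat to rat, log2 CPM was centred on each group's mean and correlated over 64 libraries. Points in these correlations share the library, its depth and its RNA quality. Of 45 pairs, 26 had a Pearson's r above 0, the median was 0.113, and 7 had an adjusted p under 0.05 by a permutation test within groups, 4 positive and 3 negative. All 7 kept their sign in each study alone, and 6 also passed by Spearman's rho. The share of all gene pairs that would pass was not computed, so these counts cannot be read as particular to the 10 genes.

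Atf4 and Ddit3 gave r = 0.63 and rho = 0.66 (adjusted p = 0.000225 and 0.00045, permutation test; the raw p of 1e-05 is the smallest the permutations can give). Their r was 0.66 without the 2 libraries farthest from the median of Atf4, 0.55 within the 10 mg/m3 libraries and 0.72 within the 30 mg/m3 libraries. Ddit3 and Slc7a11 gave r = 0.43 and rho = 0.39 (adjusted p = 0.0116 and 0.0323, permutation test), and 0.40 without 2 libraries. By study, their r was 0.52 at 10 mg/m3 and 0.38 at 30 mg/m3.

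Sesn2 ran against these 3 genes. With Ddit3 it gave r = -0.66 and rho = -0.64 (adjusted p = 0.000225 and 0.00045, permutation test), with Atf4 r = -0.52 and rho = -0.53 (0.00105 and 0.000563), and with Slc7a11 r = -0.45 and rho = -0.41 (0.00315 and 0.0243). Without 2 libraries these r were -0.60, -0.56 and -0.40. They were -0.54, -0.36 and -0.44 within the 10 mg/m3 libraries, and -0.75, -0.69 and -0.49 within the 30 mg/m3 libraries. Ddit3 and Sesn2 are both known as ATF4 targets.

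Sesn2 and Atf5 gave r = 0.37 and rho = 0.49 (adjusted p = 0.00203 and 0.000563, permutation test), with 0.38 without 2 libraries, 0.15 within the 10 mg/m3 libraries and 0.62 within the 30 mg/m3 libraries. Asns and Phgdh gave r = 0.43 and rho = 0.32 (adjusted p = 0.0105 and 0.09), and r was 0.30 without 2 libraries, 0.28 within the 10 mg/m3 libraries and 0.53 within the 30 mg/m3 libraries. Dust rats 57 and 89 were the highest of their groups in both genes, with 4.78 and 4.77 CPM of Phgdh. They also had the highest summed red cell transcripts of their groups (15117 and 13311 CPM), whose part in this r was not tested.

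The pairs among Atf5, Trib3 and Chac1 had r as high but did not pass. Their r was 0.46 for Atf5 with Trib3, 0.46 for Atf5 with Chac1 and 0.42 for Trib3 with Chac1, with adjusted p of 0.0563, 0.124 and 0.0945 (permutation test), and rho was 0.29, 0.14 and 0.23. Without 2 libraries r was 0.29, 0.23 and 0.16. It was 0.53, 0.61 and 0.73 within the 10 mg/m3 libraries, and 0.37, 0.24 and 0.03 within the 30 mg/m3 libraries. Air rat 17 (10 mg/m3 study, day 1) was the lowest of its group in all 3 genes, with 42.6 CPM of Atf5, 2.14 CPM of Trib3 and 0 counts of Chac1.

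**Figure D3:**
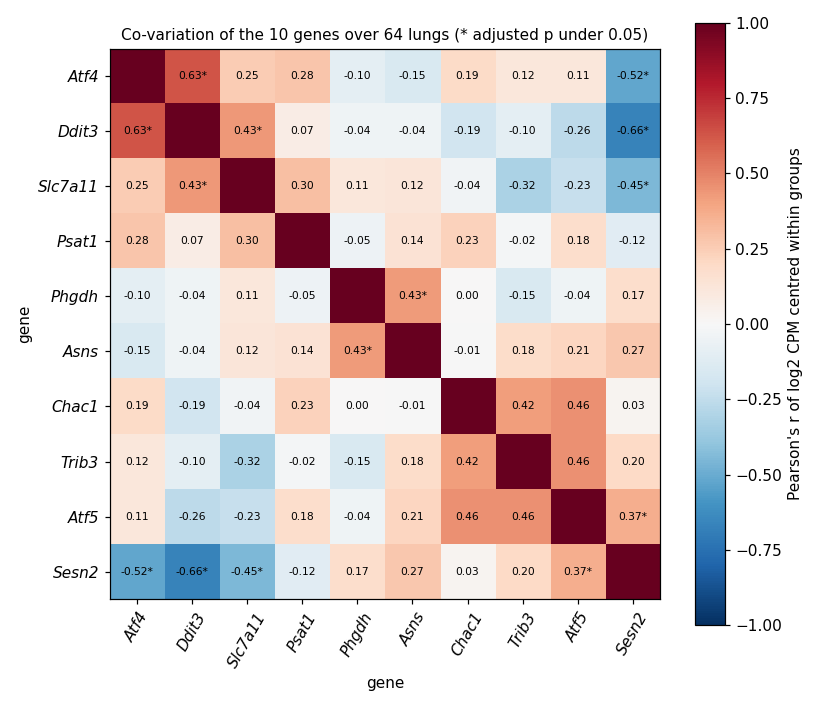
Pearson's r between each pair of the 10 genes over 64 libraries, from log2 CPM centred on the group mean; red is positive, blue negative and stars mark an adjusted permutation p under 0.05. Atf4, Ddit3 and Slc7a11 sit in 1 red corner with r of 0.25 to 0.63, and Sesn2 is blue against all 3.

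Over all 15158 genes with a mean of at least 1 CPM, the genes most like each of the 10 in these centred values were looked up; Chac1 was below that level. For Atf4 they were Fam32a, Nans and Eif4a1 (r of 0.83, 0.83 and 0.82), for Ddit3 Tcp1, LOC100910823 and Atp2c1 (0.79, 0.79 and 0.77), and for Sesn2 Zyx, Prrc2a and Mtss1l (0.87, 0.86 and 0.86). Asns went with Ube2o, Asb1 and Abhd4 (0.92, 0.92 and 0.91), Atf5 with Syngr2, Clic4 and Aes (0.85, 0.81 and 0.78), and Trib3 with Nnat, Anapc2 and Ppp1r14a (0.72, 0.64 and 0.62). For the other genes the highest r was 0.59 for Slc7a11 with Exo5, 0.52 for Psat1 with Ndufb6 and 0.50 for Phgdh with Bdkrb2. These r are the highest of 15158 and serve as a description.

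Beyond the 10 genes, 125 tested genes of 10 other lists, of the pathway and of related responses, were read from the same fits. The lists of endoplasmic reticulum chaperones with XBP1/ATF6 targets and of NRF2 targets are of related responses. In the dust comparisons by edgeR, 0 of the 125 passed on any day or in the mean of either study. Counts with an unadjusted p under 0.05 are given with the share of all genes. At 10 mg/m3 they were 22 on day 1 (18.9%), 3 on day 7 (3.96%), 6 on day 27 (2.36%) and 9 in the mean (9.27%). At 30 mg/m3 they were 9 on day 1 (15%), 3 on day 7 (4.99%), 2 on day 27 (7.34%) and 13 in the mean (17.8%). Only day 27 at 10 mg/m3 was above the share of all genes. DESeq2 called 3 on day 1 at 10 mg/m3 (Cebpa, Impact and Slc7a5), and 1 each on day 7 (Ddit4) and in the mean (Impact) at 30 mg/m3; in these 3 comparisons it called 473, 55 and 417 genes in all. Limma voom called 0 of the 125. Without air rats 51 and 53, edgeR called 6 on day 1 at 30 mg/m3 (Gcn1l1, Hyou1, Impact, Nfe2l1, Sel1l and Sesn3) and 5 in the mean (Hyou1, Impact, Jund, Nfe2l1 and Sesn3), out of 877 and 1014 genes called in all.

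In the mean at 10 mg/m3 the highest values of these lists were those of the secreted stress hormone Stc2 (log2 fold change 0.52 ± 0.15, SE) and the mitochondrial folate enzyme Aldh1l2 (0.52 ± 0.24), and the lowest that of Atf3, an early stress factor (-0.23 ± 0.13). In the mean at 30 mg/m3 the highest were the redox enzyme Srxn1 (0.25 ± 0.12) and Impact, an inhibitor of the amino acid sensor GCN2 (0.23 ± 0.07), and the lowest were Ddit4, an mTORC1 inhibitor (-0.32 ± 0.16), and the C/EBP factor Cebpb (-0.27 ± 0.09). The eIF2 phosphatase subunit Ppp1r15a, a classical CHOP target, had 0.09 ± 0.07 at 10 mg/m3 and 0.00 ± 0.05 at 30 mg/m3. None of these passed.

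Between the doses, 3 of the 125 passed by edgeR, a share near the 2.09% of all genes: Stc2 with a log2 difference of -0.78 ± 0.17 (SE; adjusted p = 0.03112), Dusp4, a MAP kinase phosphatase, with -0.41 ± 0.11 (0.04146), and Impact with 0.38 ± 0.10 (0.04046). Stc2 averaged 5.07 ± 1.20, 5.33 ± 1.19 and 6.59 ± 2.03 CPM in dust rats of days 1, 7 and 27 at 10 mg/m3, against 4.28 ± 0.528, 3.79 ± 1.52 and 3.59 ± 1.05 CPM in air rats. At 30 mg/m3 it averaged 3.12 ± 0.604, 3.85 ± 0.607 and 4.61 ± 0.658 CPM in dust rats and 4.01 ± 0.680, 4.34 ± 1.15 and 5.40 ± 1.14 CPM in air rats. Stc2 was thus on average higher with dust at 10 mg/m3 and lower at 30 mg/m3 on all 3 days, where dose and study cannot be told apart. With Dbp as a covariate all 3 were lost, with adjusted p of 0.0737 for Stc2, 0.1069 for Dusp4 and 0.08058 for Impact. At 10 mg/m3 Dbp was higher in every dust rat than in every air rat on day 1 and on day 27. On day 7 it averaged 15.8 CPM in dust rats and 7.40 CPM in air rats, with overlap. That covariate can thus hardly be told apart from dust in the 10 mg/m3 study. Impact and Dusp4 were also lost without the filter on low counts (0.0559 and 0.06842) and with the mitochondrial rRNA share as a covariate (0.06453 and 0.06394), and Impact by limma voom (0.05541). Among the 64 fits that each left out 1 library, Stc2 passed in 62, Impact in 47 and Dusp4 in 37, with the highest adjusted p at 0.05029 without dust rat 48 for Stc2 and at 0.1213 and 0.1131 without air rat 6 for Impact and Dusp4.

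Most calls among the listed genes were over time in air rats of the 30 mg/m3 study, where 24 of the 125 passed by edgeR. Of these calls, 11 were in the list of chaperones and XBP1/ATF6 targets, a related response rather than the ATF4 targets themselves. Of 19 chaperone and unfolded protein response genes of the endoplasmic reticulum, 9 fell and 2 rose on day 27 relative to day 1 by edgeR, where 7.36% of all genes fell and 5.55% rose, and their median log2 fold change was -0.14, beside 0.00 for all genes. Hspa5, the chaperone BiP, ranged from 439 to 556 CPM with a median of 505 CPM on day 27, against 517 to 767 CPM with a median of 597 CPM on day 1, and fell by 0.35 (log2; adjusted p = 0.0173). Also lower were Dnajb11 (-0.42 ± 0.08, SE), the disulfide isomerase Pdia4 (-0.44 ± 0.09) and the calcium-binding chaperone Calr (-0.37 ± 0.07), with Canx, Creld2, Dnajb9, Manf and Pdia6 between -0.24 and -0.41. The 2 that rose were the sensor kinase gene Ern1 (0.27 ± 0.09) and the ubiquitin ligase gene Syvn1 (0.38 ± 0.12).

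In air rats of the 10 mg/m3 study, 0 of the 19 passed by edgeR (2.97% of all genes did) and 5 had an unadjusted p under 0.05 (18.8% of all genes); whether the studies differ was not tested. Hspa5 had -0.13 ± 0.11 and Calr -0.04 ± 0.11 there. Of the 5, Pdia3 (0.38 ± 0.12), Hsp90b1 (0.30 ± 0.11), Hyou1 (0.23 ± 0.11) and Edem1 (0.21 ± 0.07) were higher on day 27. Dnajb11 (-0.22 ± 0.10) was lower. The genes that were higher here were not among those called at 30 mg/m3. The mitochondrial rRNA share was 0.456% to 1.62% on day 27 and 0.128% to 0.903% on day 1 in the 30 mg/m3 study, and with it as a covariate 0 of the 19 passed. Without air rats 51 and 53, 6 fell and 0 rose. Leaving out air rat 49 left 7 and leaving out air rat 52 left 6, all lower; Calr, Canx, Dnajb11, Dnajb9, Pdia4 and Pdia6 passed in each of the 36 fits that left out 1 library.

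**Figure D4:**
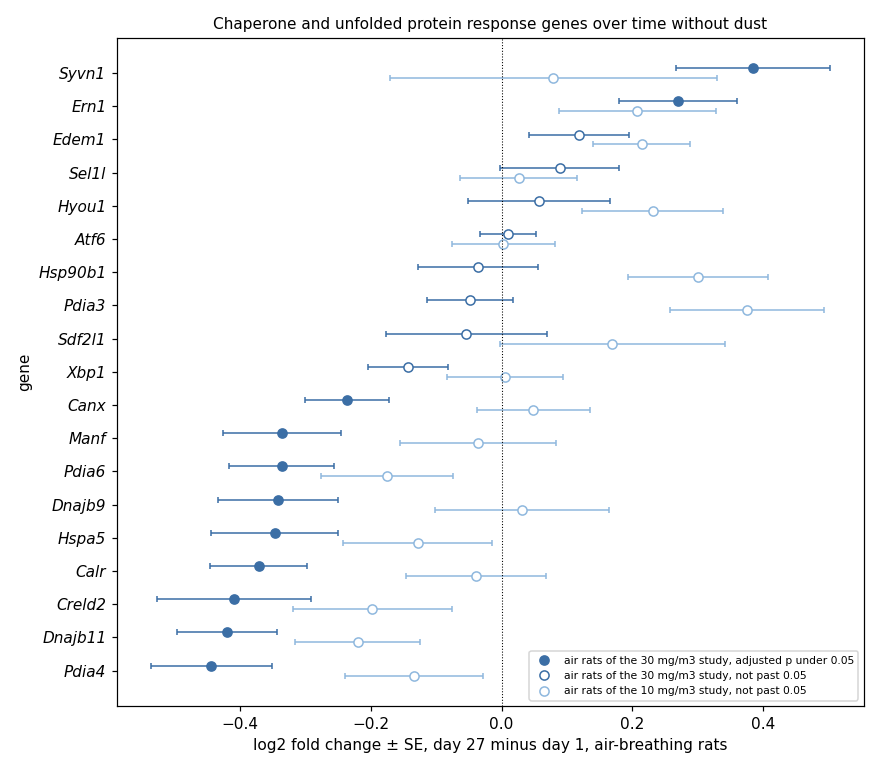
Log2 fold change with SE of 19 chaperone and unfolded protein response genes in air rats, day 27 minus day 1, in the 30 mg/m3 study (dark, filled where the adjusted p is under 0.05) and in the 10 mg/m3 study (light). In the 30 mg/m3 study 9 filled points lie left of 0 and 2 right of it; 0 points of the 10 mg/m3 study pass.

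In air rats of the 30 mg/m3 study 24 of the 125 listed genes passed by edgeR, beside 12.9% of all genes, and in those of the 10 mg/m3 study 5 of the 125, beside 2.97%. Outside the chaperone list, those at 30 mg/m3 included the tRNA synthetases Hars, Kars and Wars, which fell by 0.24, 0.22 and 0.33 (3 of 20 tested), and the RNA-sensing eIF2 kinase gene Eif2ak2 and the eIF2 kinase inhibitor gene Dnajc3, which fell by 0.59 and 0.31 on the log2 scale. Among 10 sestrin and mTORC1 regulators 4 rose: Tsc1 by 0.70, Rptor by 0.42, Sesn1 by 0.24 and Tsc2 by 0.22. The amino acid transporter genes Slc6a9 and Slc1a4 rose by 0.60 and 0.30 and the GCN2 partner gene Gcn1l1 by 0.34, and Vldlr fell by 0.22. In the 10 mg/m3 study Tsc1 rose by 0.72, Nfe2l1 by 0.42 and Glul by 0.30, and Pck2 fell by 0.42 and Vldlr by 0.34. With the mitochondrial rRNA share as a covariate, none of the genes named here passed in either study. Of the 24 listed genes called at 30 mg/m3, 13 passed in every fit with 1 library left out and 11 did not, their highest adjusted p coming without air rat 52, 53 or 87; without rats 51 and 53 together 10 passed. All 5 called at 10 mg/m3 were lost in at least 1 such fit. By edgeR, 0 of 12 NRF2 targets passed in either study, with an unadjusted p under 0.05 for 3 at 30 mg/m3 and for 2 at 10 mg/m3, neither above the share of all genes (30.1% and 18.8%).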

How the data were processed

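Per the labels' protocols, stranded libraries were built from total lung RNA after removal of rRNA. The authors deposited raw counts for each gene symbol, 1 table per dose. The tools, per the submitters' processing notes, included HTSeq 0.6.1, SAMtools 1.8, HISAT2 2.1.0, Trimmomatic 0.35 and bcl2fastq 2.19, and the build was Rnor_6.0. Whether counting used strand is not given in the sources used here; reads of overlapping and antisense genes cannot be told apart, and reads shared with near-identical copies may be lost. Samples were grouped by the treatment and day in the labels. Total counts per library ran from 3420235 to 12359518, which limits the precision for genes with few counts.

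The tests were run with edgeR 4.0.16 (R 4.3.3): TMM factors, filterByExpr (minimum count 10, minimum total count 15), robust quasi-likelihood fits of the 6 groups of a study (15668 genes at 10 mg/m3, 15551 at 30 mg/m3) or of all 12 groups (16190 genes), and Benjamini-Hochberg adjustment over all genes at 0.05. The common biological coefficient of variation was 16.11%, 16.74% and 16.58%. Exact tests used log2 CPM with a prior count of 2, and correlations used 100000 resamples within groups. Fits were tested on simulated data. Alternatives were RLE factors, DESeq2 1.42.0, limma voom 3.58.1, no filter, fits of only the groups compared, covariates (mitochondrial rRNA share, heart muscle markers, Dbp), and left-out libraries. Each pair of libraries within a group differed by more than counting noise (lowest ratio of chi-square to degrees of freedom 2.074). The 10 genes, the lists and the settings were chosen with earlier results of these data known. All 10 genes enter the edgeR counts of every comparison, but values of single genes are given for only some of them. From the lists, every gene past the threshold and the highest and lowest in each mean effect over the 3 days could be named. Genes named for another setting, and Pdia3, Hsp90b1, Hyou1 and Edem1, were chosen after their values were seen. A RefSeq table of GRCr8 gave promoter windows only; since that build is not the files' build, positions are given relative to the gene start.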

Additional observations from a re-analysis of the deposited data

Results flagged for a closer look

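Within each group, the lowest and the highest rat of each of the 10 genes were compared with the other rats of that group by Dixon's ratio. Of 120 combinations of gene and group checked, 6 held a rat far from the rest, and chance alone flags about 1 in 20. At 10 mg/m3, dust rat 45 was lowest for Ddit3 on day 7 (17.41 CPM, next 19.81), dust rat 27 was highest for Asns on day 1 (32.43 CPM, next 24.12), and dust rat 16 was highest for Sesn2 on day 27 (40.27 CPM, next 33.88). In the 30 mg/m3 study, air rat 84 was lowest for Atf5 on day 27 (81.55 CPM, next 106.0). Dust rat 57 was highest for Phgdh on day 1 (4.781 CPM, next 3.351) and dust rat 89 was highest for Phgdh on day 27 (4.768 CPM, next 3.18). Dust rat 27 has the smallest library of the series. The same rats 57 and 89 were also the highest of their groups for Asns and for summed red cell transcripts.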

How the results depend on the processing

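The count of the 10 genes called was 0 in each of the 13 comparisons. Under other settings it became 1 by DESeq2 and with the rRNA covariate on day 1 at 10 mg/m3, 1 without air rats 51 and 53 on day 1 at 30 mg/m3, 1 by DESeq2 and without rats 51 and 53 in the 30 mg/m3 mean, 1 by DESeq2 and with the Dbp covariate over time in air rats of the 30 mg/m3 study, and 1 without rats 51 and 53 between doses. Leaving out 1 library gave 0 to 2 on day 1 at 10 mg/m3 and in air rats of the 30 mg/m3 study over time, 0 to 1 in air rats of the 10 mg/m3 study over time, on day 1 and in the mean at 30 mg/m3 and between doses, and 0 to 0 elsewhere. DESeq2 gave no adjusted p for up to 4 of the 10 genes, which are left out of its counts. Of 4725 values of the 10 genes under these settings, 25 newly passed; with no call to begin with, none could be lost or reversed. Another 7 values moved across 0: Slc7a11 on day 7 at 10 mg/m3 (0.33 without air rat 36), Asns and Trib3 on day 1 at 30 mg/m3 (-0.11 without dust rat 57 and -0.07 without rats 51 and 53) and, over time in air rats with the rRNA covariate, Sesn2 (-0.11 at 10 mg/m3, -0.05 at 30 mg/m3), Slc7a11 (0.17 at 10 mg/m3) and Atf5 (-0.00 at 30 mg/m3). The exact tests called 0 with a prior count of 0.5 as well. Counts over all genes moved far more: on day 1 at 10 mg/m3, 20 by edgeR became 473 by DESeq2, 8 by limma voom, 11 with RLE factors, 5 without a filter, 3 with only the groups compared, 293 with the rRNA covariate, 8 with heart markers, 0 with Dbp, and 1 to 1147 with 1 library left out. In the 10 mg/m3 mean, 5 became 21 by DESeq2, 8 by limma voom, 2 with heart markers, 0 with Dbp and 2 to 20 with 1 library left out, and on day 27 0 became 1 with Dbp or with only the groups compared. On day 1 at 30 mg/m3, 0 became 37 by DESeq2, 1 with heart markers and 877 without rats 51 and 53 and 0 to 220 with 1 left out, and on day 7 10 became 55 by DESeq2, 6 without a filter, 0 with rRNA or heart markers, 19 without rats 51 and 53, 36 with only the groups compared and 0 to 21 with 1 left out. For dependence on the day at 10 mg/m3, 0 became 0 to 57 with 1 left out, and at 30 mg/m3 0 became 46 by DESeq2 and 3 with heart markers or without rats 51 and 53. In the 30 mg/m3 mean, 187 became 417 by DESeq2, 107 without a filter, 0 with rRNA, 67 with Dbp, 1014 without rats 51 and 53, and 22 to 610 with 1 library left out. Between doses, 338 became 809 by DESeq2, 197 by limma voom, 59 without a filter, 80 with rRNA, 0 with Dbp, 1421 without rats 51 and 53, and 4 to 1046 with 1 library left out. Over time in air rats, 466 (10 mg/m3 study) became 945 by DESeq2, 706 by limma voom, 268 without a filter, 3 with rRNA, 239 with Dbp and 2 to 1467 with 1 left out, and 2007 (30 mg/m3 study) became 110 with rRNA, 1052 without rats 51 and 53 and 1068 to 2778 with 1 left out. No paired analysis was possible because every rat has a number of its own and the groups share none. Depth limits Chac1, Slc7a11, Phgdh and Trib3, where differences of the size seen in the other genes may not be detectable.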
